A study of Mus musculus with 16 samples.

Results

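Of the 11808 H3K27me3 peaks of wild type mouse embryonic stem cells (ES), 4198 were overlapped by at least 1 bp both by an H3K27me3 peak of wild type neural precursor cells (NPC) and by one of PCGF5-deficient NPC. They made up 35.6% of the ES list (95% Wilson interval 34.7 to 36.4%, counting error only, as for all intervals given with shares) and are called kept peaks here. The other ES peaks fell into 5631 overlapped in neither NPC list, 1096 in that of PCGF5-deficient NPC only and 883 in that of wild type NPC only. Kept peaks were selected on 3 of the H3K27me3 lists, so their number, width and fold enrichment and the NPC H3K27me3 values on them are descriptions of the selection. H2AK119ub1, Flag-PCGF5, H3K27me3 of PCGF5-deficient ES, gene content and sequence were not used to choose them.

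The peaks came from chromatin immunoprecipitation and sequencing (ChIP-seq) of 46C cells, a mouse ES line that carries a Sox1-GFP reporter, which lights up in early neural cells. ES were grown on feeder fibroblasts with LIF and 2i, and NPC were cells of this line at day 6 of neural differentiation in suspension. PCGF5-deficient cells carried the genotype label shPCGF5, and according to the methods such lines were made with a lentiviral short hairpin RNA and picked as clonal clusters after puromycin selection. Flag-PCGF5 was measured in wild type cells with a Flag tag knocked in at the Pcgf5 gene. Each of the 10 lists came from 1 library, so there was no replicate error, no test between conditions was possible, and a difference between wild type and PCGF5-deficient cells cannot be told apart from a difference between libraries or clones. The read depth of the libraries is unknown, and cell identity could not be checked from peak lists, which hold no expression values.

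H3K27me3 is the trimethylation of histone H3 at lysine 27 that is written by Polycomb repressive complex 2, and H2AK119ub1 is the ubiquitination of histone H2A written by Polycomb repressive complex 1, to which PCGF5 belongs. Both marks lie over unmethylated CpG islands at silent developmental genes in ES, and each complex can help to recruit the other. During differentiation the mark is removed from genes of the chosen lineage and retained or spread over genes of other lineages.

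To show what the DNA of kept peaks looked like, 300 bases around the centre of peaks at 6 of the genes with the most kept bases are given below, from the plus strand of NCBIM37, the assembly behind mm9, with each CG dinucleotide in capitals. Ahnak2 codes for a large scaffold-like protein, Rbfox3 for the neuronal splicing factor NeuN, Nkx1-1 and Lmx1b for homeodomain transcription factors, Grb10 for an imprinted adaptor of growth factor receptors and Igf2 for an imprinted growth factor.
Ahnak2, chr12:114014712-114015011: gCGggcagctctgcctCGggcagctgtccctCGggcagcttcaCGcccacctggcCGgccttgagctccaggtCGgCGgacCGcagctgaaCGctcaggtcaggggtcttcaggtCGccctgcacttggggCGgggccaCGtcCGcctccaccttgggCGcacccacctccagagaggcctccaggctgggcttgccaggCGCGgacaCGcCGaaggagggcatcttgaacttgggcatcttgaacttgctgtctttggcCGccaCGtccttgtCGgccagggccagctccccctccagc
Rbfox3, chr11:118769884-118770183: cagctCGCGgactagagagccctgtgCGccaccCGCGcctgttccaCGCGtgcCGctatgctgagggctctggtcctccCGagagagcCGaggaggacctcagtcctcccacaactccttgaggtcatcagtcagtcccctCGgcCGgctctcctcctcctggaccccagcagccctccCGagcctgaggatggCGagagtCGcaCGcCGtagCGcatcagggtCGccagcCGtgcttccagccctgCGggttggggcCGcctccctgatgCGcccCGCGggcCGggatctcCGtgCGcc
Nkx1-1, chr5:33776477-33776776: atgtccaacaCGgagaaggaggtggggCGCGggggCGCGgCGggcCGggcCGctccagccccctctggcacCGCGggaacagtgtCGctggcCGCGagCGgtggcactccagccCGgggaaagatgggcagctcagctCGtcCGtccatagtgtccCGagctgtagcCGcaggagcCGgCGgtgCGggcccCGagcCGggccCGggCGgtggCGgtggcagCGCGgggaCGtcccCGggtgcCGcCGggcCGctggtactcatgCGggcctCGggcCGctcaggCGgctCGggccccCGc
Lmx1b, chr2:33487904-33488203: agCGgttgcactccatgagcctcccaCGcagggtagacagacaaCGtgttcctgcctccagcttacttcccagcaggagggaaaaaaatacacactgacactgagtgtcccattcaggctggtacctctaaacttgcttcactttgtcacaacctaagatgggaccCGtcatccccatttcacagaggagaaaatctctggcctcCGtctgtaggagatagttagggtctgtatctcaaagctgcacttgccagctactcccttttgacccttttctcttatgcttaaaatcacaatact
Grb10, chr11:11935349-11935648: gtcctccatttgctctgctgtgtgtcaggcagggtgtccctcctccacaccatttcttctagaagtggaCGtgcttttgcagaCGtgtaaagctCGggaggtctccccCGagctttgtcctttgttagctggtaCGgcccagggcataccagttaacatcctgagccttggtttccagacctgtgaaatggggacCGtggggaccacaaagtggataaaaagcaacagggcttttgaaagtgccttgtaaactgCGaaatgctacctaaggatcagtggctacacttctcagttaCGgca
Igf2, chr7:149845706-149846005: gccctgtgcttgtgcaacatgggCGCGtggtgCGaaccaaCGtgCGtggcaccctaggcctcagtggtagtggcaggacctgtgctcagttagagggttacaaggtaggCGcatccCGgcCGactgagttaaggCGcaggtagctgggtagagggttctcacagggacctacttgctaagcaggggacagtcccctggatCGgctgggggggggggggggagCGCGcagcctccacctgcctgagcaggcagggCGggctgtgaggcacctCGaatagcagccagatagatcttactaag
Of these windows, those at Nkx1-1 and Rbfox3 held 40 and 28 CG, the one at Ahnak2 held 21, the one at Igf2 held 14, and those at Grb10 and Lmx1b held 8 and 5. The Ahnak2 window was wholly coding sequence and all of the 50-base words tested in its peak occurred again within 100000 bp. The Nkx1-1 window lay on the start of the gene, with 149 coding bases. The Rbfox3, Lmx1b, Grb10 and Igf2 windows held no coding base. The Grb10 peak shown was 214 bp wide, so its window reached beyond it. For comparison, the windows of the 2 ES peaks with the highest fold among those overlapped in neither NPC list and meeting the same conditions are shown. The first was intergenic, 29810 bp from a start of Hmgn3, with a fold of 15.7, and the second was intronic, 4527 bp from a start of Gm3752, with a fold of 10.8.
Hmgn3, chr9:82984182-82984481: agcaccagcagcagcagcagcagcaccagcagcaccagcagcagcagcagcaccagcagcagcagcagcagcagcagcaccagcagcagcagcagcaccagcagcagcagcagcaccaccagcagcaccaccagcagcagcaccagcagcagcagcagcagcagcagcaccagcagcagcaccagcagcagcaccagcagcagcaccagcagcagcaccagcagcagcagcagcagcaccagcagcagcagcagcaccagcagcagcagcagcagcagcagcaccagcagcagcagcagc
Gm3752, chr14:8320653-8320952: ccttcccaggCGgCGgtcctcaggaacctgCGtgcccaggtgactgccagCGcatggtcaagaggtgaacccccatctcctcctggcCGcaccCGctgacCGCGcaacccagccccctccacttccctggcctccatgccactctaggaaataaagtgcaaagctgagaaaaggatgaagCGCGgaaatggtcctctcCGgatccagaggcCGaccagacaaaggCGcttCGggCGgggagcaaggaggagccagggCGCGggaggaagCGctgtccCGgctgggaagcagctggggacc
The Hmgn3 window held 0 CG in 300 bases at a GC content of 66.7%, and the Gm3752 window held 19. Single windows varied widely, and over all peaks the same 300-base window held a median of 17 CG (quartiles 8 and 28) in kept peaks and 6 (3 and 11) in peaks overlapped in neither list. At least 10 CG were present in 71.3% of kept peaks, in 70.9% of peaks found in NPC of wild type only, in 41.8% of those found in NPC of PCGF5-deficient cells only and in 30.7% of those in neither list.

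The ratio of observed to expected CpG over the whole peak had a median of 0.63 in kept peaks, 0.62 in peaks shared with wild type NPC only, 0.32 in peaks shared with PCGF5-deficient NPC only and 0.27 in peaks of neither list. A CpG-rich window (1000 bp around the centre with a GC content of at least 50% and a ratio of at least 0.6) surrounded 2144 kept peaks, which was 51.1% against 28.0% of all ES peaks and 9.13% of those in neither list. Kept peaks and those of wild type NPC only were thus alike in median CpG ratio, and those of PCGF5-deficient NPC only lay closer to the peaks found in neither list.

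Kept peaks were wider than the others. Their median width was 381 bp (quartiles 245 and 624, range 152 to 7586), against 222 bp in peaks of neither list, 289 bp in those of PCGF5-deficient NPC only and 273 bp in those of wild type NPC only. They held 2.16 of the 4.31 Mb covered by ES H3K27me3 peaks, which was 50.0% of the bases in 35.6% of the peaks. Their median fold enrichment was 4.56 (quartiles 4.03 and 5.36, range 1.53 to 16.6), against 4.03, 4.56 and 4.30 in the same order. When all ES peaks were split into 4 width classes of about equal number, 17.8% were kept in the narrowest class, 152 to 193 bp wide, 23.6% and 36.4% in the next classes and 64.6% in the widest, of at least 417 bp. Over 4 such classes of fold the share ran from 22.8% in the lowest to 52.4% in the highest. A wider peak has more bases with which to meet another list, so these shares are in part set by the overlap rule.

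At the edge of the rule, 3 kept peaks shared 1 bp with a PCGF5-deficient NPC peak and 156, 304 and 152 bp with wild type NPC peaks. Their nearest starts were those of Gm11444, Syt7 and Zbtb43, at 8353, 181 and 75711 bp. Just outside it lay ES peaks whose nearest starts were those of Rapgef5, Cacna1s and Car10, at 363708, 1406 and 777 bp. They missed the PCGF5-deficient NPC list by 2, 3 and 3 bp. In wild type NPC they were overlapped over all of their 152, 345 and 217 bp. The number of such cases depended on the distance taken. Under 50 bp were shared with an NPC list by 136 kept peaks (3.24%) and under 100 bp by 330 (7.86%). Of the other ES peaks, 169 (2.22%) lay within 100 bp of every list that they missed and 1264 (16.6%) within 1000 bp.

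In both NPC lists the peaks on kept ES peaks were broad. The widest wild type NPC peak on each had a median of 1787 bp (quartiles 901 and 3163), against 453 bp over that list, and the widest PCGF5-deficient NPC peak one of 926 bp (quartiles 490 and 1667), against 360 bp. The wild type NPC peak was the wider one at 3229 of the 4198 kept peaks (76.9%) and the narrower one at 967. Fold enrichment over each library's own background had a median of 6.30 for the wild type NPC peaks and 4.67 for the PCGF5-deficient ones. Kept ES peaks lay wholly inside a wild type NPC peak in 72.8% of cases and wholly inside a PCGF5-deficient one in 49.6%. The wild type list also had wider peaks away from ES peaks, and of its peaks that a PCGF5-deficient NPC peak met, 69.8% were the wider at kept peaks and 58.4% where no ES peak lay. The part that read depth and background had in this difference was not tested.

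**Figure D1:**
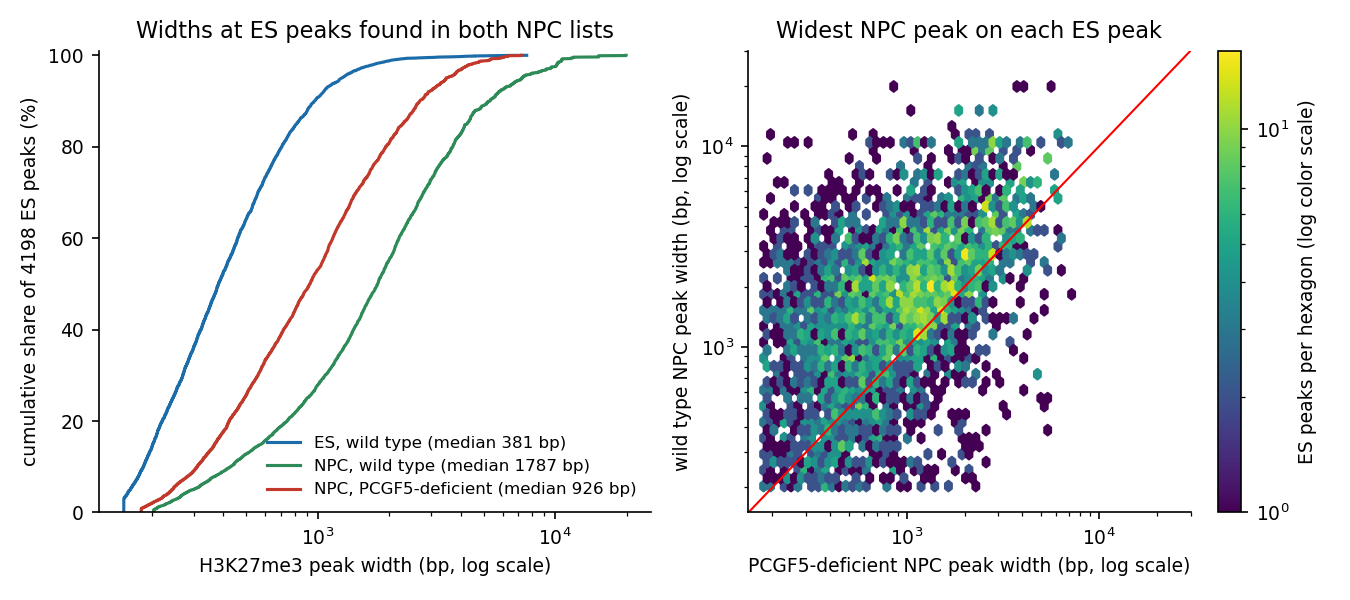
Left, cumulative share (%) of the 4198 kept ES peaks against the width in bp (log scale) of the ES peak and of the widest wild type and PCGF5-deficient NPC H3K27me3 peak on it. Right, wild type against PCGF5-deficient NPC peak width in bp (log scales), color giving the number of ES peaks per hexagon and the red line equal widths. Medians were 381, 1787 and 926 bp, and 76.9% of kept peaks lay above the line. An NPC peak on several kept peaks counts once for each.

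Several ES peaks often lay under 1 NPC peak. The 4198 kept peaks met 3020 wild type NPC peaks, of which 816 (27%) held 2 or more and 56 held 5 or more, and 3723 PCGF5-deficient NPC peaks, of which 657 (17.6%) held 2 or more and 12 held 5 or more. The fullest wild type NPC peak, 15.2 kb wide (chr8:123596496-123611740), covered 13 kept peaks and the start of Foxf1a, which codes for a forkhead factor of lung and gut mesoderm. The fullest PCGF5-deficient one held 6 kept peaks in 6.11 kb (chr4:139381922-139388033) in the Pax7 region.

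Kept peaks lay mostly at gene starts. The centre of 2734 of them (65.1%, interval 63.7 to 66.6%) was within 2500 bp of the start of a protein-coding transcript, which was called a promoter, against 44.0% of all ES peaks, 24.1% of those in neither list, 42.9% of those of PCGF5-deficient NPC only and 71.8% of those of wild type NPC only. A further 7.79% of kept peaks lay in exons, 9.36% in introns and 17.7% between genes. At promoters, 1875 kept peaks (68.6%) were centred downstream of the start and 857 upstream. Between 500 and 1500 bp from the start, 801 lay downstream and 320 upstream, while 691 were within 250 bp of it. The downstream side was also the fuller one for promoter peaks in neither list, at 64.8%.

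Promoters of 1625 of 22232 protein-coding genes (7.31%) held the centre of a kept peak, and 2976 (13.4%) that of any ES H3K27me3 peak, so 54.6% of the ES-marked genes had a kept one. Gene lists were then read against these shares, with no test, since the members had been chosen with earlier results known.

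Many genes of the developmental transcription factor families had a kept peak. Of 39 Hox genes, which set position along the body axis, 34 were kept, and these 34 were all the Hox genes with an ES peak. All 12 LIM homeobox genes, which specify neuron types, and all 6 Dlx genes, which pattern forebrain and face, were kept, as were 5 of 6 Irx, 5 of 6 Gata, 7 of 9 Pax and 10 of 14 Nkx genes. The Fox list had 21 of 43, the T-box list 9 of 16, the Sox list 10 of 18, the POU list 7 of 14 and the list of sine oculis homeobox genes, such as Six3, 4 of 6. All of these shares were above 7.31%.

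Signalling genes were marked less evenly. Of the Wnt ligands 15 of 19 were kept, with Wnt7b (3344 kept bp within 2500 bp of its starts), Wnt11 (2476 bp) and Wnt1 (2304 bp) holding the most. Of FGF ligands 8 of 22 were kept, though 14 had an ES peak, and of the list of BMP and GDF genes and antagonists 11 of 28. The latter list was taken by symbol and also held the enzyme genes Bmp1 and Bmp2k, neither of them kept. In the Nodal pathway, which favours mesendoderm over neural fate, 3 of 23 genes were kept, among them Inhbb, an activin subunit (1967 bp), and Tgfb1, a growth factor ligand (158 bp). Nodal and its antagonists Lefty1 and Lefty2 had no wild type ES peak near a start, and their H3K27me3 in wild type NPC, of 1379, 1638 and 698 bp, had no counterpart in PCGF5-deficient NPC, so they are not among the kept genes.

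Among neural genes, 11 of 22 basic helix-loop-helix regulators and 11 of 20 neural precursor genes were kept. In the latter list they included Pax6 (3616 bp), Six3 (2903 bp), Otx1 (1836 bp), Pou3f1 (1484 bp), Pou3f3 (1350 bp), Emx2 (1268 bp), Pou3f2 (901 bp), Emx1 (848 bp), Zic1 (734 bp) and Rax (478 bp), all of them transcription factors of the forebrain, eye or early neural plate. Cdh2, an adhesion protein of the neural tube, had 330 bp of ES H3K27me3 that no kept peak held. Nes and Tubb3, cytoskeletal genes of precursors and neurons, had no wild type ES peak near a start.

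Of the genes of mesoderm and endoderm 19 of 30 were kept, led by Pdgfra (1692 bp), Tal1 (1553 bp) and Myod1 (1461 bp), a growth factor receptor, a blood factor and a muscle factor. Among pluripotency genes the count was 1 of 19, and that gene was Esrrb, a nuclear receptor, with 1340 kept bp. Among the Polycomb genes, Cbx8 (844 bp), which codes for an H3K27me3-reading subunit of complex 1, was kept, while Pcgf5, Kdm2b, Auts2 and Yaf2 had ES H3K27me3 near a start but no kept base. Clustered protocadherins, neuronal adhesion genes, had 6 of 24 kept although 15 had an ES peak, ribosomal protein genes 0 of 83 and olfactory receptor genes 1 of 1087.

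**Figure D2:**
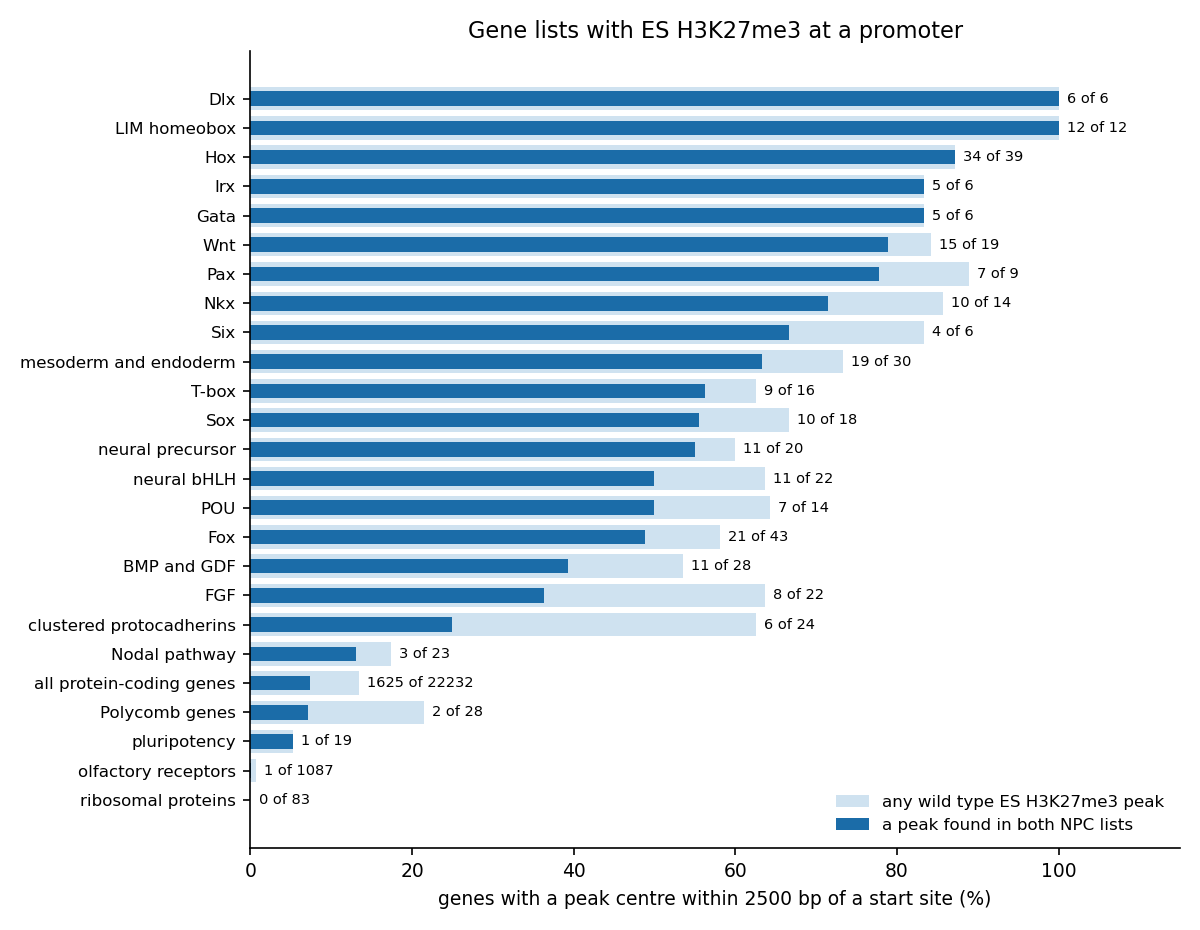
Share (%) of the genes of each list with an H3K27me3 peak centre of wild type ES within 2500 bp of a start site, for any ES peak (light) and for kept peaks (dark), the figures at the bars giving kept genes of all genes. Dlx and LIM homeobox genes were kept in full and Hox genes in 34 of 39, against 1625 of 22232 over all protein-coding genes.

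The 12 genes with the most kept bases were Ahnak2, Rbfox3, Nkx1-1, Lmx1b, Grb10, Igf2, Tbx1, Hoxd3, Gata2, Pax6, Nptx1 and Skor1. At Pax6, an eye and forebrain regulator (chr2:105509053-105543317), H3K27me3 near starts covered 4350 bp in wild type ES against 17888 bp in the corresponding NPC, and went from 5035 to 13796 bp in PCGF5-deficient cells. H2AK119ub1 there went from 4747 to 10494 bp in wild type cells and from 6898 to 2308 bp in PCGF5-deficient cells. Both marks were thus broadest in wild type NPC, and H2AK119ub1 was narrowest in PCGF5-deficient NPC.

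At Gata2, a blood and neuron factor (chr6:88143885-88157024), H2AK119ub1 covered 2383 and 2004 bp in ES and 5471 and 2061 bp in NPC, again with wild type first. Hoxd3 (chr2:74549986-74586331) had 3373 and 6964 bp in ES and 19339 and 4708 bp in NPC. Grb10 (chr11:11830511-11938686) had 895 and 738 bp in ES and 6780 and 569 bp in NPC. At all 3 genes the wild type NPC list had the most H2AK119ub1 bases. Nptx1, which codes for a synaptic pentraxin (chr11:119400033-119409067), had the reverse in NPC, with 849 bp in wild type and 2150 bp in PCGF5-deficient cells. At Rbfox3 (chr11:118351074-118772911) wild type ES led with 5292 bp, followed by 1834 bp in PCGF5-deficient ES, and the NPC lists had 857 bp in wild type and 610 bp in PCGF5-deficient cells. Ahnak2 (chr12:114010405-114040868), with 6050 kept bp, the most of any gene, had 151 and 351 bp in ES and 0 and 180 bp in NPC. Its widest kept peak, of 1476 bp, lay wholly in coding and locally repeated sequence.

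Outside repeated sequence, the widest kept peaks were at Nptx1 (3582 bp, chr11:119407925-119411506), Grb10 (3244 bp, chr11:11924226-11927469) and Rbfox3 (3044 bp, chr11:118768512-118771555), followed by one of 2580 bp in coding sequence of 1700008O03Rik (chr7:51606919-51609498) and one of 2385 bp at Tlx3, a homeobox gene of sensory and autonomic neurons (chr11:33101003-33103387). This leaving out was chosen after the values were seen. The widest kept peaks with H2AK119ub1 in none of the 4 lists were one of 2200 bp at the start of Cpeb2, a translation regulator (chr5:43624494-43626693), one of 1891 bp between genes whose nearest start, 180456 bp away, was that of Rybp (chr6:100416946-100418836), and one of 1771 bp over exon sequence of Rasl10b (chr11:83231273-83233043).

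H2AK119ub1 was frequent on kept peaks in all 4 lists. In wild type ES it overlapped 1638 of them (39.0%, interval 37.6 to 40.5%), against 27.4% of all ES H3K27me3 peaks, and in PCGF5-deficient ES 1283 (30.6%, 29.2 to 32.0%) against 17.7%. In wild type NPC it overlapped 1463 (34.8%, 33.4 to 36.3%) against 13.3%, and in PCGF5-deficient NPC 1321 (31.5%, 30.1 to 32.9%) against 13%. Of peaks overlapped in neither NPC list, the wild type ES list overlapped 18.6%, the PCGF5-deficient one 7.01%, and the corresponding NPC lists 0.249% and 1.30%. The intervals of kept peaks and of peaks in neither list did not overlap in any of the 4 lists. Peaks are not independent of each other, and the labels give 1 input library per cell state, which the H3K27me3 and H2AK119ub1 lists of that state may share.

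Peaks of PCGF5-deficient NPC only stood at 39.0% and 32.1% in the ES lists, close to kept peaks, and lower than them in NPC, at 2.37% in the wild type list and 11.4% in the other. Of these 1096 peaks, 215 lay in locally repeated sequence, where at least 50% of the 50-base words occurred again within 100000 bp. Without such peaks their ES shares were 28.3% (interval 25.4 to 31.3%) and 21.5% (18.9 to 24.3%), below those of kept peaks, at 36.5% (35.0 to 38.0%) and 27.9% (26.5 to 29.3%). Peaks of wild type NPC only were low in every list, at 13.9%, 6.34%, 7.02% and 1.47% in the order given above. At least 1 of the 4 lists overlapped 2638 kept peaks (62.8%), against 39.3% of all ES peaks and 22.2% of those in neither. All 4 overlapped 431 kept peaks (10.3%), against 3.71% of all, and only 7 ES peaks outside the kept ones were in all 4.

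**Figure D3:**
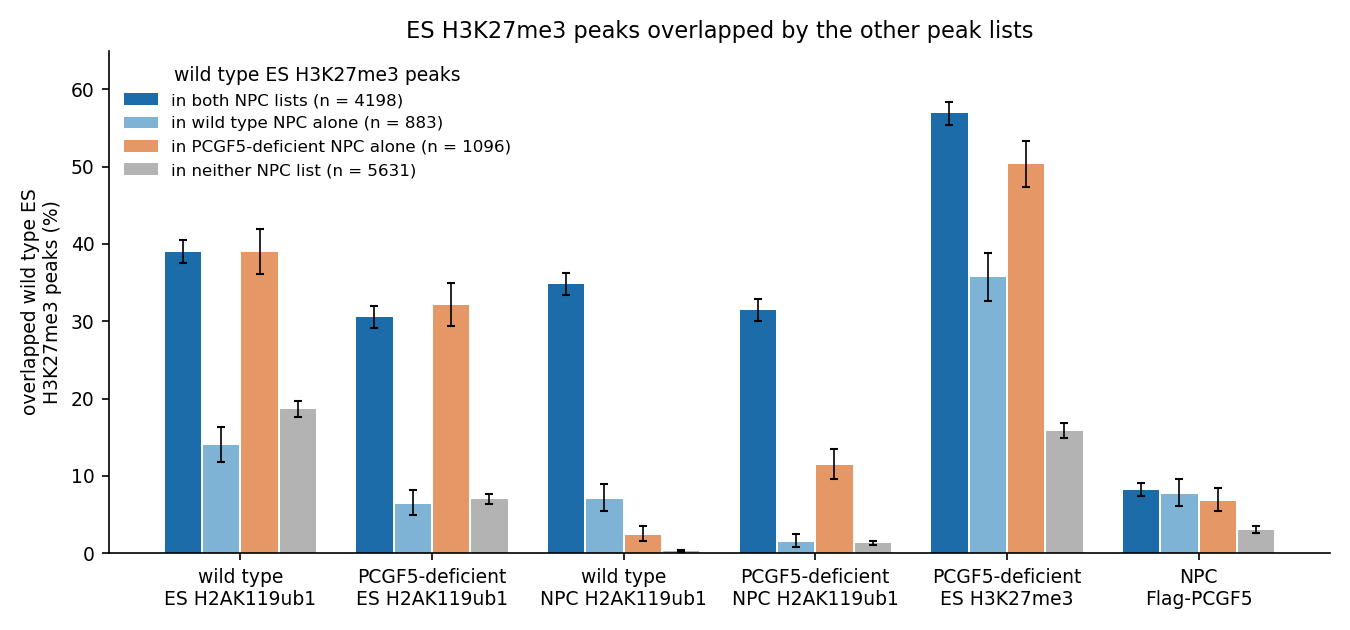
Share (%) of wild type ES H3K27me3 peaks overlapped by at least 1 bp by each H2AK119ub1 list, by H3K27me3 of PCGF5-deficient ES and by NPC Flag-PCGF5, for the 4 classes of ES peaks. Error bars are 95% Wilson intervals for counting error, with 1 library per list. Kept peaks reached 34.8% in wild type NPC H2AK119ub1, against 0.249% of peaks in neither NPC list.

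The difference held within each of 4 classes of peak width. The widest class ran from 417 to 7586 bp. It was not matched further, and 387 kept peaks were 1 kb or wider, against 23 of those in neither list. In the narrowest of the 4 width classes, wild type ES H2AK119ub1 overlapped 22.9% of 528 kept peaks and 12.3% of 2021 peaks in neither list, and in the widest class 51.2% of 1903 and 38.6% of 552. For wild type NPC H2AK119ub1 the kept shares were almost level over the classes, at 37.5%, 35.5%, 34.1% and 34.3%, while PCGF5-deficient NPC H2AK119ub1 ran from 20.8% to 41.3%. In each of the 4 classes and 4 lists the kept share was the higher one.

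**Figure D4:**
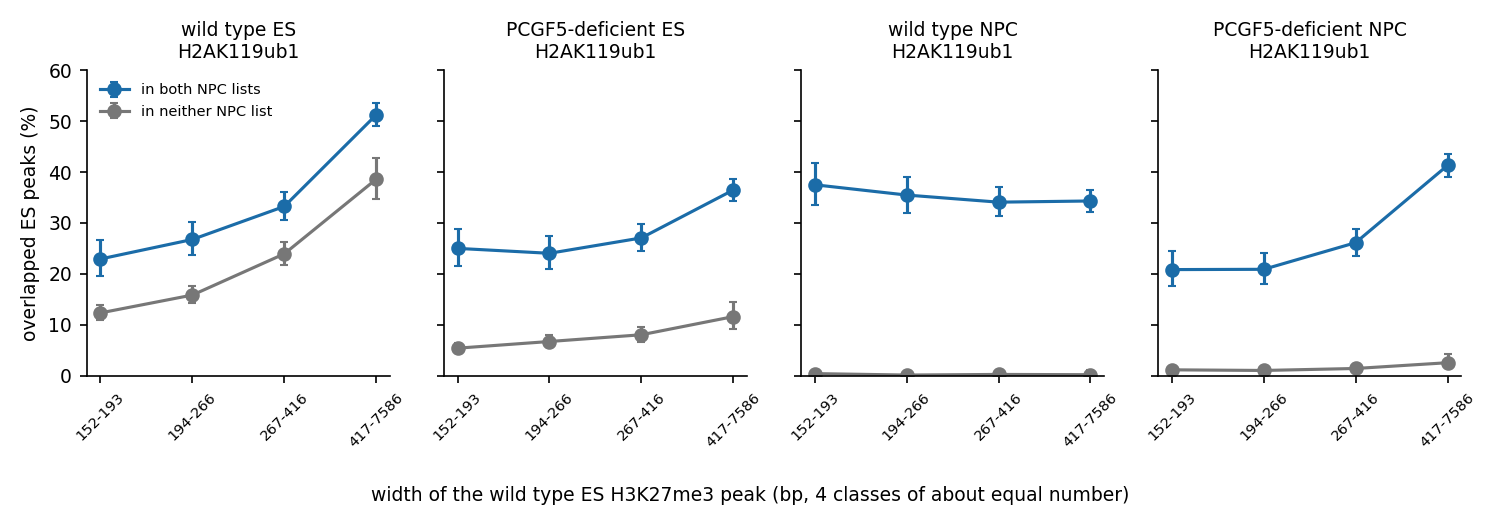
Share (%) of wild type ES H3K27me3 peaks overlapped by each H2AK119ub1 list, by class of ES peak width in bp (4 classes of about equal number), for kept peaks (blue) and peaks in neither NPC list (grey). Error bars are 95% Wilson intervals for counting error. Wild type NPC H2AK119ub1 was found on 37.5% of the narrowest and 34.3% of the widest kept peaks, PCGF5-deficient NPC H2AK119ub1 on 20.8% and 41.3%.

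Kept peaks did not all have H2AK119ub1. The 1560 with none in any list (37.2%) had a median width of 334 bp, a median CpG ratio of 0.68 and 72.8% at promoters. The 431 with all 4 had a median width of 612 bp, a CpG ratio of 0.60 and 52.2% at promoters, and 22.5% of them lay in locally repeated sequence, against 1.47% of those with none. Genes were also counted by peak centres within 2500 bp of their starts, a window wider than the peaks. H2AK119ub1 in at least 1 list was present at 1258 of the 1625 kept genes. All 4 lists marked 330, among them 26 of the 34 kept Hox genes and all 7 kept Pax genes. The ES lists marked 850 (wild type) and 758 (PCGF5-deficient) kept genes, against 6.69% and 5.96% of all protein-coding genes. The NPC lists marked 768 and 689 in the same order, against 4.98% and 4.17%. Shares over all genes for at least 1 list or all 4 were not computed.

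The order of the lists depended on their length. Wild type NPC H2AK119ub1 held 5754 peaks and PCGF5-deficient NPC 3845. When each of the 4 lists was cut to its 3845 top-scoring peaks, the kept shares were 25.8% for wild type ES and 20.7% for PCGF5-deficient ES, in the same order as before, and 28.0% for wild type NPC and 31.5% for PCGF5-deficient NPC, in the opposite order. The widest H2AK119ub1 peak on each overlapped kept peak had a median of 362.5 bp (wild type) and 375 bp (PCGF5-deficient) in ES. Over the whole lists the medians were 217 and 222 bp. In NPC the values were 472 and 309 bp, against 265 and 216 bp. A wider peak meets another list more often, so these differences are in part set by the overlap and by taking the widest. Of all H2AK119ub1 peaks, 38.6% of the PCGF5-deficient NPC list met a kept peak, 26.3% of the wild type NPC list, 20.5% of the wild type ES list and 19.4% of the PCGF5-deficient ES list.

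Many kept peaks lay near each other. Joined over gaps of up to 10000 bp they formed 1913 regions, of which 164 held 5 or more. The other classes were not joined in this way, so the grouping is not read as particular to kept peaks. The 15 fullest regions held 381 kept peaks, and 9 of these regions lay over the HoxD, HoxB and HoxA clusters, Neurod2, Lmx1b, Foxf1a, Pax2, Uncx and Pax7, genes for transcription factors of body axis, neurons, mesoderm and muscle. HoxD (chr2:74485856-74602469) held 51 kept peaks in 117 kb, HoxB (chr11:96133909-96214929) 40 in 81.0 kb and HoxA (chr6:52141025-52212043) 30 in 71.0 kb. At HoxD, kept ES peaks covered 15.5 kb, while H3K27me3 covered 83.5 kb in wild type NPC, 18 kb in PCGF5-deficient ES and 72.7 kb in NPC of the latter genotype.

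H2AK119ub1 over the same clusters was broadest in wild type NPC. At HoxD wild type ES had 13.4 kb, PCGF5-deficient ES 23.1 kb, wild type NPC 64.2 kb and PCGF5-deficient NPC 14.0 kb. The values were 14.5, 30.2, 61.8 and 13.6 kb at HoxB in the same order, and 15.1, 18.5, 55.9 and 13.8 kb at HoxA. Over the 9 developmental regions together the share of bases covered was 21.2% in wild type ES against 58.8% in the corresponding NPC, and 29.3% against 17.1% in PCGF5-deficient cells. More bases were covered in wild type than in PCGF5-deficient NPC in 9 of 9 regions, and in wild type than in PCGF5-deficient ES in 3 of 9. These are values of whole regions, in which kept peaks held 81.5 of 395.5 kb. On the bases of all kept peaks, repeated ones included, H2AK119ub1 covered 29.7% in wild type and 20.9% in PCGF5-deficient ES. In NPC it covered 20.8% and 21.4% in the same order, so the wild type NPC excess of the regions was not seen there.

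The wild type NPC list covered 2.08 times as many bases as the PCGF5-deficient one over the genome, and 3.43 times as many in these 9 regions. With 3845 peaks in each list, which was tried after the values were seen, the ratios were 1.64 and 3.16. Over all 155 regions of 5 or more kept peaks that were not mainly repeated, coverage was 40.3% in wild type and 14.8% in PCGF5-deficient NPC, with more bases in wild type NPC in 126 regions and fewer in 24. H3K27me3 covered 83.0% of the 9 regions in NPC of wild type cells and 72.3% where PCGF5 was deficient. These regions were chosen for peaks present in both NPC H3K27me3 lists, so nothing is read from the closeness of the H3K27me3 values.

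**Figure D5:**
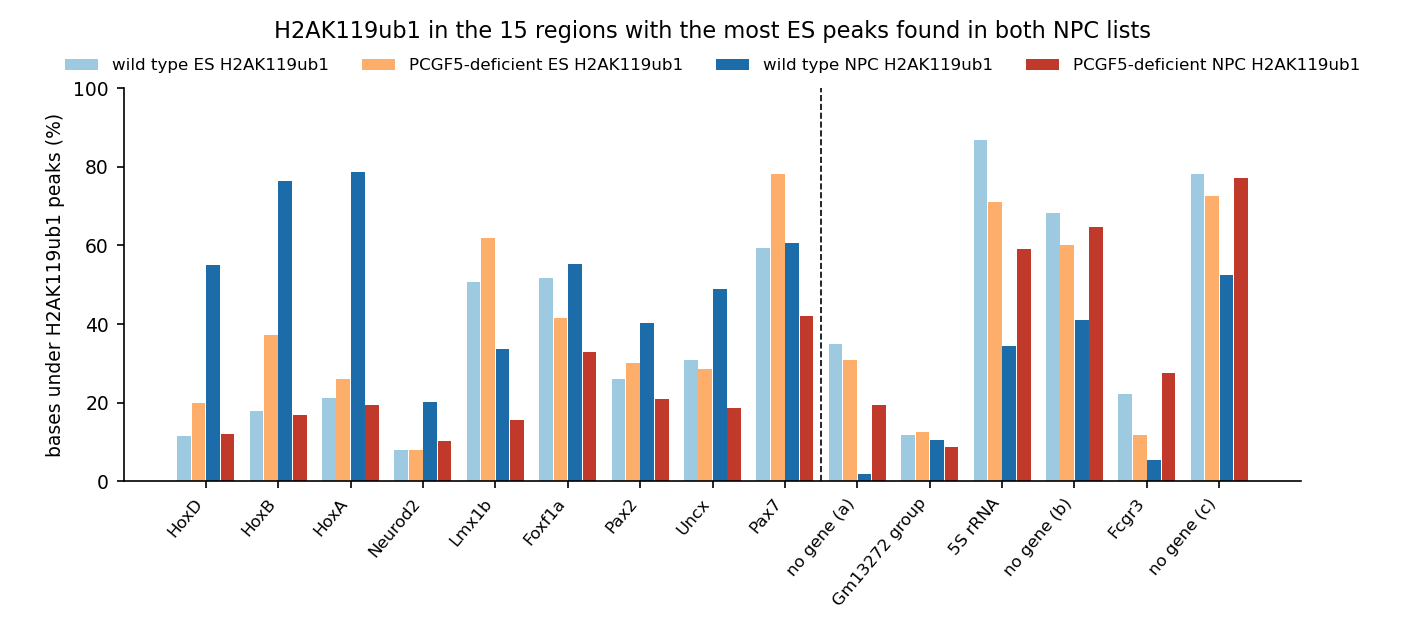
Share (%) of bases under H2AK119ub1 peaks in the 15 regions with the most kept peaks, by list, with 9 developmental regions left of the dashed line and 6 regions of repeated sequence right of it. At HoxA, HoxB and HoxD wild type NPC stood above the other 3 lists, and 9 of 9 developmental regions were higher in wild type than in PCGF5-deficient NPC, against 1 of 6 repeated regions.

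The other 6 of the 15 regions consisted of repeated sequence, with between 75.6% and 98.6% of their 50-base words present more than once in the region, against at most 0.357% in the 9 above. The most kept bases came from the 5S ribosomal RNA genes on chromosome 8 (chr8:126061274-126148387), where 51 annotated rRNA genes lay in 87.1 kb. Its 32 kept peaks covered 80.3 kb and included the 5 widest of all, from 5031 to 7586 bp, and the one with the highest fold, 16.6. H2AK119ub1 covered 75.6 kb of it in ES and 30 kb in NPC of wild type cells, and 61.8 and 51.5 kb in those of PCGF5-deficient cells. The remaining repeated regions were a group of 13 genes around Gm13272 on chromosome 4, the Fcgr3 locus on chromosome 1 and 3 regions of chromosome 6 without a protein-coding gene. In 5 of these 6 regions PCGF5-deficient NPC had the larger H2AK119ub1 coverage, opposite to the developmental regions.

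Over the genome, 240 kept peaks (5.72%) lay in locally repeated sequence, against 9.87% of all ES peaks. They held 229 kb, or 10.6% of the kept bases, and 217 of them had H2AK119ub1 in at least 1 list. How reads were assigned among copies is not given in the sources used here, and its part in these peaks was not tested. Without them H2AK119ub1 overlapped 36.5% (ES) and 34.1% (NPC) of the 3958 other kept peaks in wild type cells and 27.9% and 29.0% in PCGF5-deficient cells.

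The kept peaks of highest fold were often poor in CpG or repeated. Of 68 kept peaks with a fold of at least 8, 29 lay in locally repeated sequence (42.6%), and over all 68 peaks 41.2% had a CpG ratio under 0.1, 23.5% were at promoters and 97.1% had H2AK119ub1 in at least 1 list. Among the 434 with a fold from 6 to 8 the values were 9.45%, 5.76%, 66.1% and 73.5% in the same order. The 4 of highest fold after the 5S peak had CpG ratios from 0 to 0.035. They lay 910 bp from a start of Uros (308 bp, fold 14.9) and 1199 bp from one of Stk32c (994 bp, fold 14.6, in locally repeated sequence). The others were intergenic, 68941 bp from a start of Rlim on chromosome X (444 bp, fold 13.6) and 28148 bp from one of Bahcc1 (766 bp, fold 13).

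H3K27me3 of PCGF5-deficient ES overlapped 2390 kept peaks (56.9%, interval 55.4 to 58.4%), against 35.1% of all ES peaks, 50.4% of those of PCGF5-deficient NPC only, 35.7% of those of wild type NPC only and 15.8% of those in neither. These 2390 were in all 4 H3K27me3 lists. By this 1 bp overlap the share was highest in kept peaks, which were also the widest class. By bases, the list covered 43.3% of kept peaks and 43.6% of those of PCGF5-deficient NPC only. It covered 24.5% of the bases of peaks of wild type NPC only and 13.4% of those in neither. The widest PCGF5-deficient ES peak on each overlapped kept peak had a median of 457 bp, against 298 bp over that list. Wider peaks meet another list more often, so this difference is in part set by the overlap.

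Few kept peaks were overlapped by Flag-PCGF5 peaks. The ES Flag-PCGF5 list, of 653 peaks, overlapped 18 of them (0.429%) against 0.356% of all ES H3K27me3 peaks, a share near the background. The NPC Flag-PCGF5 list, of 12013 peaks, overlapped 345 (8.22%, interval 7.43 to 9.09%) against 5.56% of all, 6.75% of those of PCGF5-deficient NPC only, 7.70% of those of wild type NPC only and 3.02% in neither. The intervals of kept peaks and of the classes found in 1 NPC list overlapped. Counted by peak centres in the wider window of 2500 bp around gene starts, NPC Flag-PCGF5 was present at 378 of the 1625 kept genes, against 3055 of all 22232 protein-coding genes (13.7%). Before the Flag ChIP, cells were crosslinked and chromatin was sheared by sonication, while histone ChIP used micrococcal nuclease digestion, so the lists differ in method as well as in target.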

How the data were processed

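ChIP-seq libraries of H3K27me3, H2AK119ub1 and Flag-PCGF5 in ES and NPC were used through their 10 peak lists, 1 library per list, and the 6 input libraries were not used here. According to the methods, the authors trimmed the reads, aligned them to mm9 with Bowtie2, removed duplicates and ran the MACS2 peak caller on each library (version 2.1.0 in the submitters' processing notes), without pooling libraries. Each line of the deposited lists holds a peak with its summit, a score and the fold enrichment, a ratio over background. The deposited p-value and q-value of a peak are both on the −log10 scale. The lowest −log10 p-value of wild type ES H3K27me3 was 4.01, and 8.81% of its peaks had a q-value above 0.05. The Drosophila spike-in does not enter the lists. A longer list can follow from deeper sequencing, and depth is unknown.

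Overlaps of at least 1 bp were computed with numpy 2.4.6 and pandas 2.3.3 and checked against bedtools 2.31.1 on simulated lists. Peaks were used as deposited, with no further filter. Gene starts came from the GENCODE M1 annotation of NCBIM37 (22232 protein-coding gene names), and coordinates are counted from 1. Shares carry Wilson intervals at 95%. No test was made, since each group held 1 library. Gene lists were families and pathways given by name. Named genes were the 12 with the most kept bases within 2500 bp of a start, up to 3 per list, every gene of the neural precursor and Nodal lists that was counted (some genes that the rule names are not reported here), the genes of the 5 widest and 5 highest-fold kept peaks, and the widest with all 4 or none of the H2AK119ub1 lists. Nearby values at Nodal, Lefty1, Lefty2, Cdh2, Nes, Tubb3 and the Polycomb genes were chosen after they were seen. Members and lists were chosen with earlier results of these data known. Locally repeated sequence was found with 50-base words taken every 25 bp and looked for within 100000 bp on the same assembly.

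Alternatives were an overlap of 50% of the ES peak, the higher-scoring 50% of each list, equal numbers of peaks, a q-value under 0.05, a 1000 bp window around the centre, merged peaks, chromosomes 1 to 19 and other promoter windows. Leaving out repeated sequence, equal numbers of H2AK119ub1 peaks over regions and the ES summit were added after seeing the data.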

Additional observations from a re-analysis of the deposited data

Results flagged for a closer look

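In 3 measures H2AK119ub1 differed between PCGF5-deficient and wild type cells in opposite directions in ES and NPC. Peak width and fold were taken on kept peaks, and coverage over whole regions around them. With 1 library per group none of these differences was tested. With the full lists, the share of kept peaks overlapped was lower in PCGF5-deficient cells in both ES and NPC. The median width of the widest H2AK119ub1 peak on each overlapped kept peak was 12.5 bp larger in PCGF5-deficient than in wild type ES (375 against 362.5 bp). In NPC the difference was -163 bp (309 against 472 bp). The corresponding medians over the whole lists were 222 and 217 bp in ES and 216 and 265 bp in NPC, so the lists moved in the same directions by less.

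The highest H2AK119ub1 fold enrichment on each overlapped kept peak was taken in the same way. Its median differed by -0.949 in ES (4.07 in PCGF5-deficient against 5.02 in wild type cells) and by 0.679 in NPC (5.14 against 4.47). The whole lists went from 4.61 to 4.00 in ES and from 4.35 to 4.91 in NPC.

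The share of bases under H2AK119ub1 peaks in the 9 developmental regions differed by 8.13 percentage points in ES (29.3% in PCGF5-deficient against 21.2% in wild type cells) and by -41.6 points in NPC (17.1% against 58.8%). In the 6 repeated regions the directions were the reverse, with 44.4% against 51.7% in ES and 39.0% against 20.8% in NPC. On the bases of all kept peaks the shares were 20.9% in PCGF5-deficient against 29.7% in wild type ES. In NPC they were 21.4% against 20.8%, so the difference over regions was not seen there. List length, depth and background differ between the libraries, and their part in these values was not tested.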

How the results depend on the processing

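Of 66 alternatives to 13 results, 25 stayed within the interval of the value (or within 1.5 times of the gene count) and 41 did not. H2AK119ub1 was more frequent on kept peaks than on peaks in neither NPC list in all 28 combinations of setting and list. With 50% of the ES peak overlapped, 29.1% of ES peaks were kept, and H2AK119ub1 overlapped 25.3% (ES) and 25.8% (NPC) of them in wild type cells and 19.7% and 19.4% in PCGF5-deficient ones, H3K27me3 of PCGF5-deficient ES 39.4%, and ES and NPC Flag-PCGF5 0.175% and 5.80%. With the higher-scoring 50% of each list, 31.6% were kept, with H2AK119ub1 on 28.4% (wild type NPC), 25% (PCGF5-deficient ES) and 28.3% (NPC of the same genotype), 49% for PCGF5-deficient ES H3K27me3, 0.214% and 4.34% for Flag-PCGF5, a median width of 525 bp and a median fold of 5.09. With a 1000 bp window, 41.1% were kept, with H2AK119ub1 at 44.2% (ES) and 38.2% (NPC) for wild type cells and 36.2% and 35.3% for PCGF5-deficient ones, 66.6% for PCGF5-deficient ES H3K27me3 and 10.3% for NPC Flag-PCGF5. With 3845 peaks in each H2AK119ub1 list the shares were 25.8% (wild type ES), 20.7% (PCGF5-deficient ES) and 28.0% (wild type NPC), against 31.5% in PCGF5-deficient NPC, whose list has that length, so the order in NPC turned. The kept share was 33.2% with 11371 peaks in each H3K27me3 list, 37.1% at a q-value under 0.05, 31.5% with peaks within 1000 bp merged and 29.0% by the ES summit. Without locally repeated sequence it was 37.2%, with H2AK119ub1 at 36.5% (wild type ES), 27.9% (PCGF5-deficient ES) and 29.0% (PCGF5-deficient NPC), PCGF5-deficient ES H3K27me3 at 55.0%, promoters at 67.5% and a CpG ratio of 0.64. Promoters were 45% with a 1000 bp window and 66.8% by any base, and the CpG ratio was 0.61 in a 1000 bp window. The cause of each shift was not tested beyond what a setting changes by its construction.

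No replicate was left out because each group had 1 library. No paired analysis was possible because each group had 1 library. Read depth is unknown, and absence from a list means only that no peak was called there.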

Other observations

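The share of ES peaks that were kept varied between chromosomes. It was highest on chromosome 19, with 160 of 336 peaks (47.6%), and chromosome 2, with 432 of 1018 (42.4%). It was lowest among the autosomes on chromosome 14, with 114 of 481 (23.7%). On chromosome X 22 of 116 (19%) were kept.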
